A study of Mus musculus with 12 samples.

Results

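The 9 genes described here carry the noradrenaline signal into the adipocyte. They are the β-adrenergic receptors *Adrb1* and *Adrb3*, the α-adrenergic receptors *Adra1a*, *Adra2a* and *Adra2c*, the stimulatory G protein α-subunit *Gnas*, the adenylyl cyclase *Adcy3*, the regulatory subunit *Prkar2b* of protein kinase A and the phosphodiesterase *Pde3b*. They were chosen by name, with earlier results of these data known, as 9 of the 20660 genes that the arrays could be given a symbol for. Shares of the 9 set beside those of all genes are therefore descriptions and no test of the 9 as a set. All of their probes were read, 15 in number, of which 14 were bright enough to be tested. RNA came from subcutaneous white adipose tissue (scWAT) and brown adipose tissue (BAT) of male C57Bl6/J mice aged 12 weeks on a high-fat diet (HFD, 60% of calories from fat). WT littermates were compared with mice lacking LR11 (Lr11 -/-), a sorting receptor of the LDL receptor family encoded by *Sorl1*. Each genotype was measured in both tissues, which gives 4 groups (WT and Lr11 -/- scWAT, WT and Lr11 -/- BAT) of 3 one-colour Agilent arrays. The labels do not say that the arrays of a group are separate animals, so p-values measure the spread between these samples.

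Noradrenaline from sympathetic nerves drives lipolysis and heat production in fat. The β-receptors couple to Gs, whose α-subunit switches on adenylyl cyclase. The cAMP formed releases the catalytic subunits of protein kinase A from their regulatory subunits, and the kinase then acts on lipolytic enzymes and on the transcription of *Ucp1*, the uncoupling protein of brown fat. The α2-receptors couple to Gi and lower cAMP, α1-receptors act mainly through Gq and calcium, and phosphodiesterase 3B degrades cAMP downstream of insulin.

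Values are log2 intensities relative to the 75th percentile of the array, so a value of 0 is a probe as bright as that percentile. They compare arrays for 1 probe and do not rank genes against each other. A gene was read from its brightest tested probe. Differences were called at a limma adjusted p under 0.05, adjusted over the 32120 probes tested. *Sorl1* checked the labels. It read 0.91, 0.96 and 1.15 on the WT scWAT arrays against -3.57, -3.56 and -2.87 on the Lr11 -/- scWAT arrays, and 0.71, 1.21 and 0.11 on the WT BAT arrays against -3.93, -2.45 and -2.48 on the Lr11 -/- BAT arrays, so that every knockout array lay below every WT array of its tissue.

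The arrays of a group were not alike in cell type markers, and the differences touch the results that follow. All 6 adipocyte markers were above background on all 12 arrays, but their summed intensity was 359 times the 75th percentile on WT scWAT replicate 2 and 885 to 1836 on the other 11. That array also had the highest sum of 5 macrophage markers, 181 against 17.1 to 61.4 elsewhere. The sum of 7 brown adipocyte markers was 23.1, 1.92 and 262 in WT scWAT, 398, 3358 and 3640 in Lr11 -/- scWAT, and 2625 to 3555 over the 6 BAT arrays, so that 2 of the 3 Lr11 -/- scWAT arrays were as high as BAT. All 8 skeletal muscle markers were above background on WT scWAT replicate 3, Lr11 -/- scWAT replicate 1, WT BAT replicates 1 and 3 and Lr11 -/- BAT replicate 1, with sums of 476 to 3210 against 0.910 to 3.28 on the other 7 arrays. The sum of 6 nerve and Schwann cell markers was 1.98 to 10.2 in WT scWAT, 8.77, 49.6 and 73.4 in Lr11 -/- scWAT and 72.8 to 114 over the BAT arrays. Epithelial markers were highest on Lr11 -/- scWAT replicate 1, with a sum of 42.7, and on WT scWAT replicate 3, with 8.44, against 0.475 to 0.842 elsewhere. The sum of 6 B lymphocyte markers was 1.28 to 1.65 in WT scWAT and 0.642 to 0.761 in Lr11 -/- scWAT. In BAT it was 0.884 to 1.25 in WT and 0.495 to 0.790 in Lr11 -/- mice. The sum was lower in the knockout of both tissues without overlap, but its members were not alike. *Ms4a1* did not overlap between genotypes in either tissue, *Cr2* overlapped in both and *Cd79b* overlapped in BAT. Of the 6 markers, 4 to 6 were above background on WT scWAT arrays and 2 to 4 on Lr11 -/- scWAT arrays. The sum of 5 smooth muscle and pericyte markers was 66.6 to 101 in WT scWAT, 75.4, 35.7 and 36.1 in Lr11 -/- scWAT and 36.7 to 60.0 over the BAT arrays, and that of 5 endothelial markers 20.8 to 47.6 over all 12 arrays. The part of these cells in the results was not tested, and in tissue RNA fewer cells of a type cannot be told apart from less RNA per cell. Replicate 1 of each group came from a first array series and replicates 2 and 3 from a second.

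**Figure D1:**
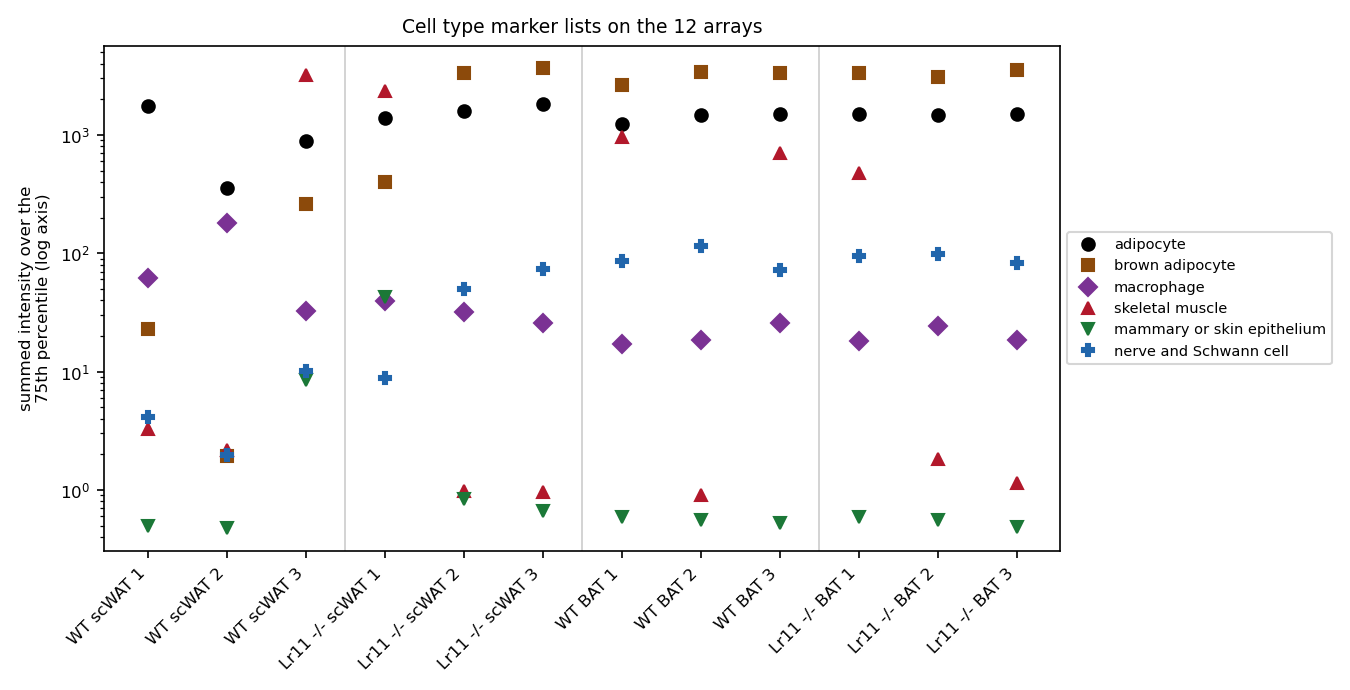
Summed intensity of cell type marker lists relative to the 75th percentile of the array, on a log axis, for each of the 12 arrays. The brown adipocyte sum on Lr11 -/- scWAT replicates 2 and 3 (3358 and 3640) reaches the BAT arrays, while replicate 1 (398) stays near WT scWAT replicate 3 (262).

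In scWAT, the mean of 8 of the 9 genes was above that of WT mice in Lr11 -/- mice, the exception being *Adra2a*. The rise passed the test for *Adrb3*, *Adrb1* and *Adcy3*, 3 of 9 genes, where 5.27% of all probes were called and 6.05% of the 14709 named genes read from 1 probe (3.63% of these higher in Lr11 -/- mice). At an unadjusted p under 0.05 stood 8 of the 9 genes, against 29.9% of the named genes. The median difference of the 9 was 1.88 on the log2 scale, and that of all named genes 0.05. WT and knockout arrays did not overlap for 5 of the 9 genes, with a background of 21.0%. *Adrb1* was counted among them by a narrow margin, -2.4425 in WT against -2.4357 in Lr11 -/- scWAT, and its other probe overlapped. *Adra2a*, also counted among them, entered the test only through WT scWAT, the group where it was highest. In BAT, 0 of the 9 genes was called by limma between genotypes, 0 had an unadjusted p under 0.05, and the median difference was 0.03. In BAT 0.0187% of all probes and 0.0272% of the named genes were called, and 1.81% of the latter had an unadjusted p under 0.05.

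**Figure D2:**
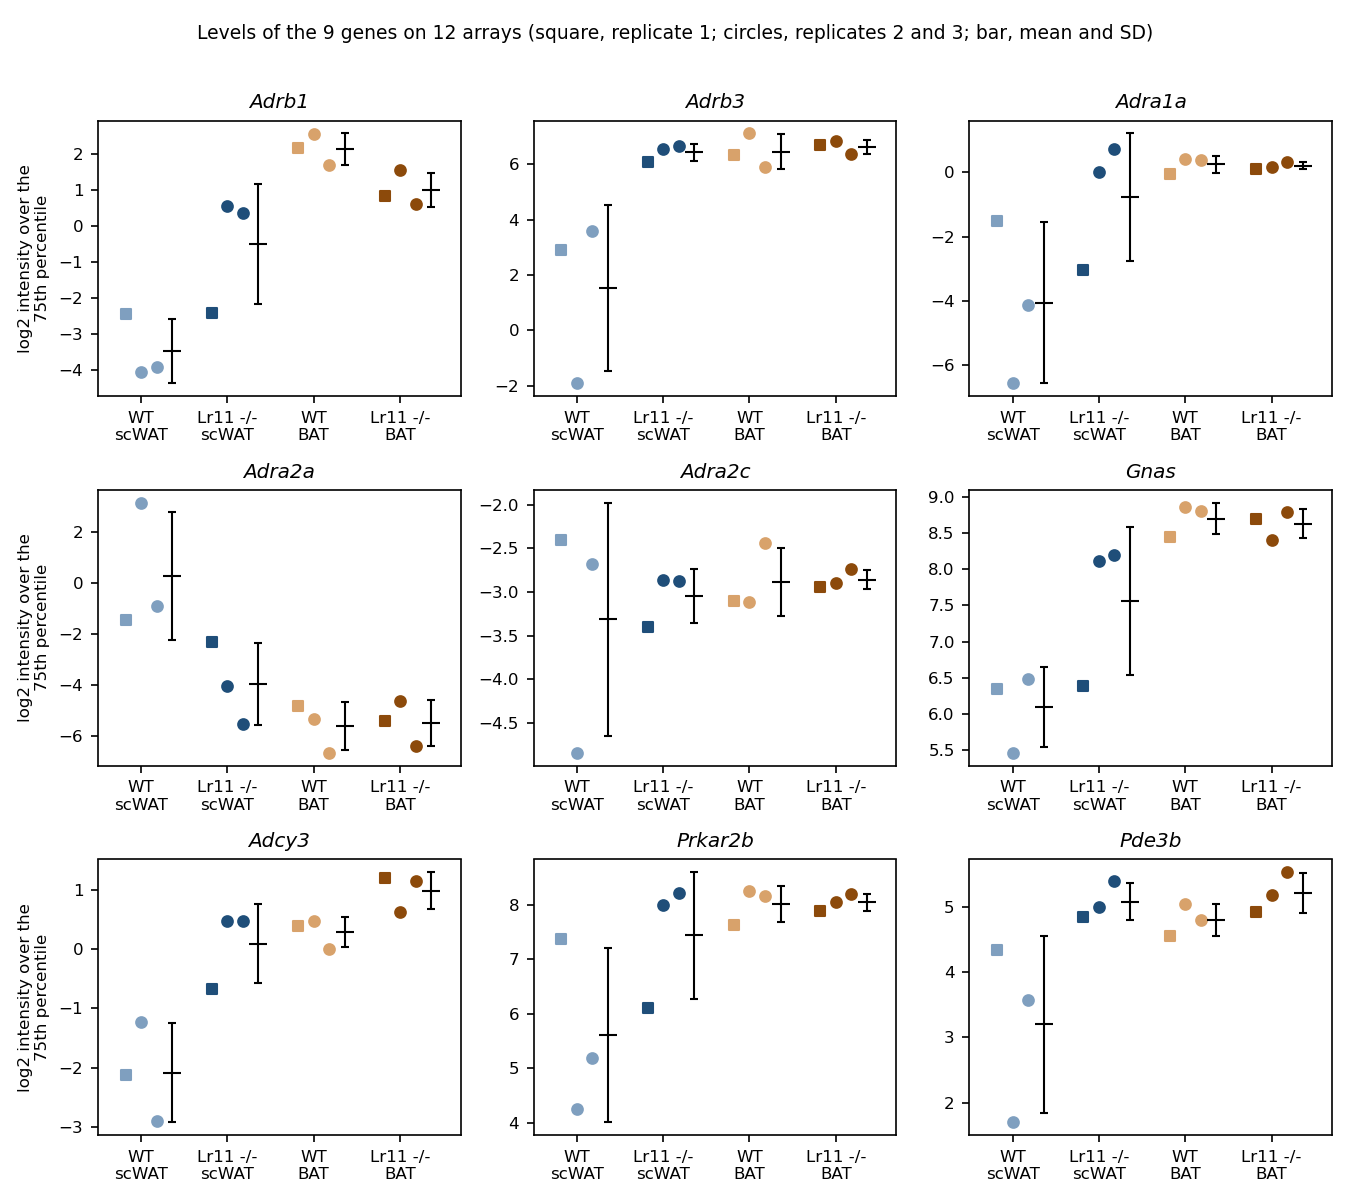
Log2 intensity over the 75th percentile for each gene, with the 3 arrays of each group as points (square, replicate 1 of the first array series) and the mean with its SD as a bar. Lr11 -/- scWAT replicates 2 and 3 sit beside the BAT arrays for *Gnas*, *Prkar2b* and *Adra1a*, while replicate 1 sits among the WT scWAT arrays.

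*Adrb3*, the β3-receptor through which noradrenaline acts on rodent fat, differed most among the β-receptors. It read 2.92, -1.91 and 3.60 in WT scWAT against 6.08, 6.53 and 6.65 in Lr11 -/- scWAT. Every knockout array was above every WT array, and WT scWAT replicate 2, the array low in adipocyte markers, was far below the other 2. The difference was 4.89 on the log2 scale (SE 1.11, 29.6-fold, adjusted p = 0.042). Without that array it was 3.16 (adjusted p = 0.016). In BAT the WT arrays read 6.33, 7.12 and 5.89 and the knockout arrays 6.68, 6.83 and 6.36, which overlap. The mean of Lr11 -/- scWAT was 6.42, that of WT BAT 6.45 and that of Lr11 -/- BAT 6.62, and neighbours in this order did not differ beyond their spread. WT scWAT lay below them at 1.54 ± 3.01 (SD, n = 3). The SD was 0.30 in Lr11 -/- scWAT, 0.62 in WT BAT and 0.24 in Lr11 -/- BAT. The fit used 1 spread for all 4 groups, which is smaller than that of WT scWAT. The second *Adrb3* probe moved the same way in scWAT, by 3.74 (SE 0.53, adjusted p = 0.015), from -0.36, -2.26 and -0.32 to 3.07, 2.40 and 2.80.

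*Adrb1*, the β1-receptor, read -2.44, -4.07 and -3.93 in WT scWAT against -2.44, 0.54 and 0.34 in Lr11 -/- scWAT. Replicate 1 of the knockout was level with replicate 1 of WT, and the other knockout arrays were above them. The difference was 2.96 (SE 0.73, adjusted p = 0.046), and WT scWAT replicate 2 was not well above background. Without that array the difference was 2.67 (adjusted p = 0.13), and of the 12 fits that left out 1 array the call was held in 2, those lacking the first replicate of WT or of Lr11 -/- scWAT. In BAT the order was the opposite. WT arrays read 2.16, 2.56 and 1.67 and knockout arrays 0.83, 1.53 and 0.61, with all 3 knockout arrays below all WT arrays, yet the difference of -1.14 did not pass the test (95% interval -2.74 to 0.47). The difference between the genotype effects in both tissues was 4.10 (95% interval 1.83 to 6.37), with an adjusted p of 0.36. The other *Adrb1* probe did not show the scWAT difference. It read -3.50, -2.34 and -2.99 in WT and -3.43, -2.27 and -2.03 in Lr11 -/- scWAT, a difference of 0.36 (95% interval -0.58 to 1.31), and fell within -1.80 to -0.43 on the BAT arrays. Both probes carry the same RefSeq accession in the array design, so the scWAT rise of *Adrb1* rests on 1 of 2 probes.

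The α-receptors did not move as 1 group. *Adra1a*, the α1A-receptor, read -1.52, -6.54 and -4.12 in WT scWAT against -3.03, 0.00 and 0.72 in Lr11 -/- scWAT. The lowest WT array, replicate 2, was not well above background, and knockout replicate 1 lay among the WT arrays. The difference of 3.29 (SE 1.15) had an adjusted p of 0.10. All 6 BAT arrays lay between -0.06 and 0.43, with the 2 genotypes overlapping.

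*Adra2a*, the α2A-receptor that restrains cAMP, was the member with the opposite sign. It read -1.45, 3.17 and -0.88 in WT scWAT against -2.29, -4.02 and -5.52 in Lr11 -/- scWAT, so that the genotypes did not overlap. Its highest value was on WT scWAT replicate 2, the array with the highest macrophage sum. The difference was -4.22 (SE 1.17, adjusted p = 0.059), and -2.77 without that array (adjusted p = 0.14). On the 6 BAT arrays, and on Lr11 -/- scWAT replicate 3, the probe was not well above background. The probe entered the test only through WT scWAT, the group where it was highest. This limits what its genotype difference and non-overlap in scWAT can show. *Adra2c*, the α2C-receptor, lay between -4.84 and -2.41 on all 12 arrays, and its scWAT difference was 0.26 (95% interval -0.91 to 1.43).

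The promoters of *Adrb1* and *Adra2a* are shown because these receptors have opposite signs in scWAT. The 250 bases upstream of the annotated start are given 5′ to 3′ on the coding strand, from RefSeq (GRCm38.p6), at chr19:56721867-56722116 for *Adrb1* and at chr19:54045009-54045258 for *Adra2a*, both on the plus strand. Capitals mark TGACG, the short form of the cAMP response element, searched on both strands.
Adrb1: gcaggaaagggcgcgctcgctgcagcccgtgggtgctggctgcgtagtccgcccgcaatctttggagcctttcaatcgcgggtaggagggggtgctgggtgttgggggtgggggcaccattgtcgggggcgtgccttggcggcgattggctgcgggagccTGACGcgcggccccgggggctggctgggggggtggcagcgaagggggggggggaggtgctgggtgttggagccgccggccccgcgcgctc
Adra2a: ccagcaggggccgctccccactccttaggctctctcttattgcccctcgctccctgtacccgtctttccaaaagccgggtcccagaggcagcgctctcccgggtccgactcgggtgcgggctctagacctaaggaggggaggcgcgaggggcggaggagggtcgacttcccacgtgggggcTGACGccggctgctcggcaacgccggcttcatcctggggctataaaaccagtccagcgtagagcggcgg
Each window holds 1 match, whose first base is at position -90 for *Adrb1* and -69 for *Adra2a*, counted back from the start. Of the 32851 promoter windows of the same length 17.8% hold TGACG, so a match is common. The full element TGACGTCA, which contains the short form, is in 1.55% of them and in 0 of the 11 windows listed for the 6 members with an entry. Among the other members, 3 of 4 *Gnas* windows, of which a pair overlap, hold TGACG, and the windows of *Adra2c*, *Adcy3* and *Prkar2b* do not hold these letters. *Adrb3*, *Adra1a* and *Pde3b* had no entry.

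Downstream of the receptors, *Adcy3*, an adenylyl cyclase of adipocytes, rose. It read -2.12, -1.23 and -2.91 in WT scWAT against -0.67, 0.48 and 0.49 in Lr11 -/- scWAT, with no overlap. The difference was 2.19 (SE 0.43, 4.55-fold, adjusted p = 0.036). In BAT the knockout arrays read 1.20, 0.63 and 1.15, all above the WT arrays at 0.40, 0.48 and 0.01, but the difference of 0.70 did not pass the test (95% interval -0.26 to 1.66). Non-overlap in BAT held for 2 of the 9 genes, *Adrb1* and *Adcy3*, and for 13.0% of all named genes.

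*Gnas* read 6.34, 5.46 and 6.48 in WT scWAT against 6.39, 8.11 and 8.20 in Lr11 -/- scWAT. Replicate 1 of the knockout was within the WT range, and replicates 2 and 3 were near the BAT arrays, which lay between 8.40 and 8.85. The difference of 1.47 (SE 0.45) had an adjusted p of 0.076. The *Gnas* locus is imprinted and makes several transcripts, and its 3 probes carry 3 accessions. A second tested probe read -3.82, -2.97 and -2.49 in WT scWAT against -3.97, -0.77 and -1.08 in Lr11 -/- scWAT, a difference of 1.15 (95% interval -0.47 to 2.77), with the knockout split in the same way. The third probe was not above background on any array.

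*Prkar2b*, the RIIβ subunit that sets the cAMP sensitivity of protein kinase A in fat, read 7.37, 4.25 and 5.19 in WT scWAT against 6.10, 7.99 and 8.22 in Lr11 -/- scWAT. The highest WT array exceeded the lowest knockout array, both being replicate 1. The difference of 1.83 (SE 0.73) had an adjusted p of 0.14, and its other probes gave 2.21 and 2.18 with adjusted p-values of 0.10 and 0.12. BAT arrays lay between 7.63 and 8.25. *Pde3b*, the cAMP-degrading enzyme of insulin action, read 4.33, 1.70 and 3.57 in WT scWAT against 4.84, 5.003 and 5.40 in Lr11 -/- scWAT. The groups did not overlap, and WT replicate 2 was again the lowest. The difference of 1.88 (SE 0.53) had an adjusted p of 0.063, and without WT scWAT replicate 2 it was 1.13 (adjusted p = 0.11). On the BAT arrays *Pde3b* lay between 4.55 and 5.54, overlapping between genotypes.

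**Figure D3:**
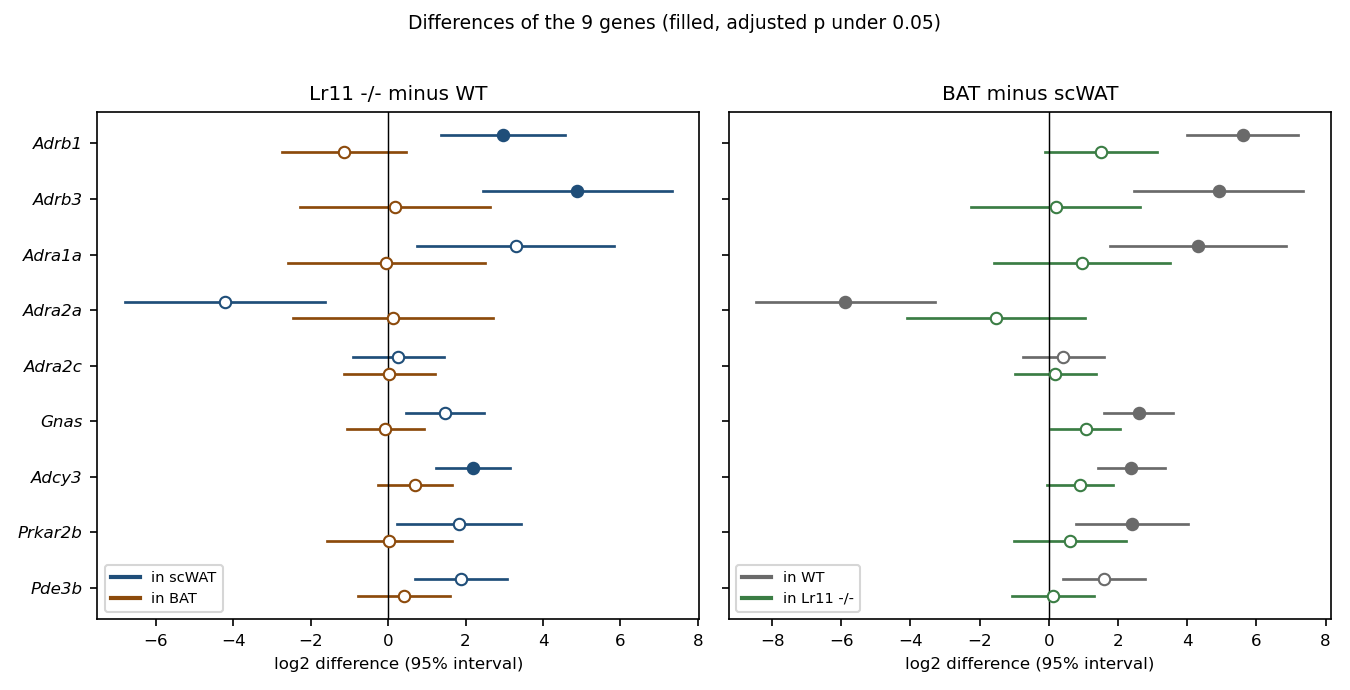
Log2 differences of the 9 genes with their 95% intervals, Lr11 -/- minus WT on the left and BAT minus scWAT on the right, filled where the adjusted p was under 0.05. In BAT all 9 intervals between genotypes include 0. In WT mice 7 genes are called between the tissues, where 24.8% of all probes are, and in Lr11 -/- mice 0, where 0.0405% are. The difference between these tissue effects is called for 0 of the 9.

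The scWAT calls depended on single arrays. Without WT scWAT replicate 2, *Adrb3* and *Adcy3* were called, 2 of 9, with 0.691% of all probes. Without Lr11 -/- scWAT replicate 1, the array high in muscle and epithelial markers, 8 of 9 were called, all but *Adra2c*, with 19.8% of all probes. Without WT scWAT replicate 1, 7 of 9 were called (13.7% of all probes), and without WT scWAT replicate 3, the 3 genes *Adrb3*, *Adra2a* and *Adcy3* (14.4%). Without Lr11 -/- scWAT replicate 2 or 3, 0 of 9 was called, with *Adrb3* at 4.83 and 4.77 (adjusted p = 0.16 and 0.17) and 0.0872% and 0.00934% of all probes. Without any 1 of the 6 BAT arrays the scWAT differences were unchanged by construction, but 0 of 9 was called (0.464% of all probes without WT BAT replicate 2), with an adjusted p of 0.066 to 0.071 for *Adrb3* and 0.059 to 0.065 for *Adcy3*. Leaving out the 5 arrays with all muscle markers above background, a choice made after seeing the data that leaves 1 array in WT BAT, gave 3 calls, *Adrb1*, *Gnas* and *Adcy3*, with 11.2% of all probes, and an *Adrb3* difference of 6.09 (adjusted p = 0.066).

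The array series differed in the size of the scWAT difference. In the second series, with 2 arrays a group, the differences were 5.75 for *Adrb3*, 4.44 for *Adrb1*, 2.55 for *Adcy3*, 2.18 for *Gnas* and -5.91 for *Adra2a*, and 8 of 9 genes were called, with 22.6% of all probes. In the first series, with 1 array a group and so no test, they were 3.17 for *Adrb3*, 0.01 for *Adrb1*, 1.45 for *Adcy3*, 0.05 for *Gnas* and -0.83 for *Adra2a*, and *Adra1a*, *Adra2c* and *Prkar2b* had the opposite sign, at -1.50, -0.99 and -1.27.

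**Figure D4:**
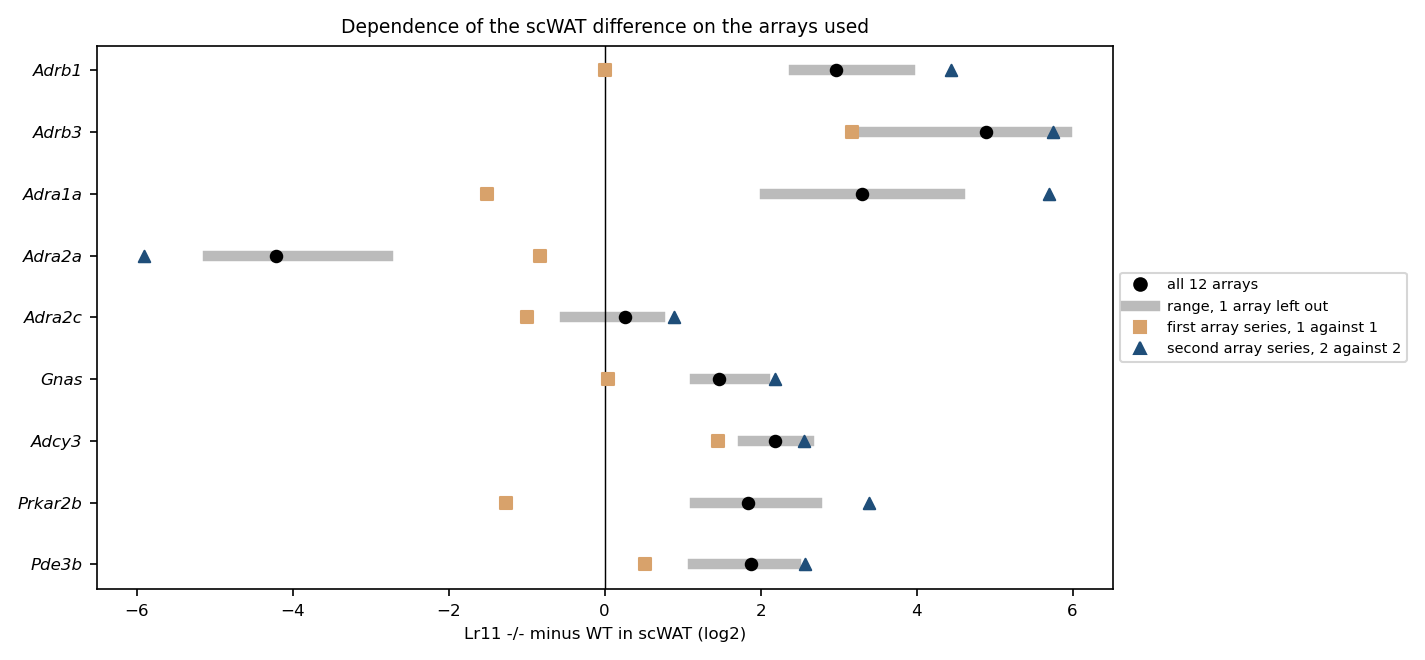
Lr11 -/- minus WT in scWAT on the log2 scale for each gene, with all 12 arrays (black), as the range when 1 array is left out (grey), in the first array series (squares, 1 array against 1) and in the second (triangles, 2 against 2). *Adrb3*, *Adra2a*, *Adcy3* and *Pde3b* keep their sign in both series, and *Adrb1* and *Gnas* are near 0 in the first.

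The same genes were compared between the tissues. These comparisons share arrays with those between genotypes and are given side by side. In WT mice 7 of the 9 genes were called between BAT and scWAT, where 24.8% of all probes and 26.3% of named genes were (15.7% of named genes higher in BAT). At an unadjusted p under 0.05 were 8 of the 9 against 41.6% of named genes, and the tissues stood apart for 8 against 41.3%. *Adrb1* was higher in BAT by 5.61 (SE 0.73, adjusted p = 0.0025), *Adrb3* by 4.91 (SE 1.11, adjusted p = 0.012), *Adra1a* by 4.31 (adjusted p = 0.022, with 2 of 3 WT scWAT arrays well above background for each of *Adrb1* and *Adra1a*), *Gnas* by 2.60 (adjusted p = 0.0050), *Prkar2b* by 2.41 (adjusted p = 0.036) and *Adcy3* by 2.38 (adjusted p = 0.0059). Both *Adrb1* probes were called here, the other at 2.18. *Adra2a* had a fitted difference of -5.88 (adjusted p = 0.0077), though no WT BAT array was well above background. With each dim value replaced by the faintest signal above background of its array, it was at least 30.03-fold lower in BAT. This bound was not itself tested. The probe entered the test only through WT scWAT, the group where it was highest. *Pde3b* was higher by 1.60 (95% interval 0.42 to 2.78, adjusted p = 0.051), and *Adra2c* by 0.42 (95% interval -0.75 to 1.59).

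*Adrb1*, *Adra2a*, *Gnas* and *Adcy3* remained called between the tissues of WT mice in all 12 fits without 1 array, and *Adrb3* in 11. The exception for *Adrb3* was the fit without WT BAT replicate 2 (adjusted p = 0.051), in which 4 of 9 genes were called and 10.2% of all probes. The calls of *Adra1a* and *Prkar2b* were held in 8 and 4 of the 12. *Adra1a* lost its call without WT scWAT replicate 2, where its difference was 3.07 (adjusted p = 0.064), or without any WT BAT array (adjusted p = 0.058 to 0.072). *Prkar2b* lost its call without WT scWAT replicate 2, where its difference was 1.73 (adjusted p = 0.12), without WT scWAT replicate 3 or without any BAT array (adjusted p = 0.051 to 0.11). *Pde3b* was called without WT scWAT replicate 1, at 2.16 (adjusted p = 0.010). Without the 5 muscle-marked arrays 2 of 9 were called, *Adrb1* and *Gnas*, with 7.35% of all probes, and WT BAT was then 1 array, assumed to vary like the other groups.

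In Lr11 -/- mice 0 of the 9 genes was called by limma between BAT and scWAT, with 1 at an unadjusted p under 0.05 and 0.0405% of all probes and 0.0612% of named genes called. An unadjusted p under 0.05 was found for 8.84% of named genes. Apart from *Adra2a* the differences ran from 0.13 for *Pde3b* to 1.51 for *Adrb1*, with 0.20 for *Adrb3* (95% interval -2.25 to 2.65) and 1.06 for *Gnas* (95% interval 0.06 to 2.06, adjusted p = 0.53). *Adra2a* was well above background on 2 of 3 Lr11 -/- scWAT arrays and on no Lr11 -/- BAT array. Its level was at least 1.48-fold lower in BAT by the same kind of bound, and its fitted difference of -1.53 did not pass the test (adjusted p = 0.71). The 2 tissues did not overlap for 3 of the 9, *Adrb1*, *Gnas* and *Adcy3*, against 25.0% of all named genes. The difference between the genotype effects of scWAT and BAT, which is also the difference between the tissue effects of both genotypes, was called for 0 of the 9 genes by limma, with 5 at an unadjusted p under 0.05 against 12.2% of named genes. Of all probes and of all named genes 0.0% were called for it. Its interval excluded 0 for *Adrb1*, *Adrb3*, *Adra2a*, *Gnas* and *Adcy3*, of which *Adra2a* was dim on every BAT array, and the smallest adjusted p was 0.36.

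The other genes of the pathway were taken from 11 lists of 97 genes, of which 89 were tested. Each was read from 1 probe, and where a gene had further probes these were not compared. In scWAT 7 of them were called, 5 higher and 2 lower, a share of 7.87%, against 6.05% of all named genes, and their median difference was 0.13. By class, 0 of 4 further adrenergic receptors, 0 of 8 protein kinase A subunits and inhibitors, 0 of 9 A-kinase anchors, 0 of 6 genes of receptor desensitisation, 0 of 7 other cAMP effectors and 0 of 10 other receptors that raise or lower cAMP were called by limma. These classes held 1, 2, 1, 2, 3 and 2 genes at an unadjusted p under 0.05, against 29.9% of all named genes.

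*Gnal*, the olfactory-type relative of *Gnas* that also stimulates adenylyl cyclase, fell on the 1 of its 2 probes that was read. It read 1.16, 0.54 and -0.53 in WT scWAT against -2.68, -4.18 and -3.67 in Lr11 -/- scWAT, a difference of -3.90 (SE 0.46, adjusted p = 0.011). All 3 knockout arrays were below all WT arrays, and the BAT arrays lay between -3.81 and -3.02. Of the fits that left out 1 array, the call was lost in the one lacking the third Lr11 -/- scWAT array, at -3.82 (adjusted p = 0.059). *Adcy10*, the soluble adenylyl cyclase, was higher by 4.00 (adjusted p = 0.045) but well above background on 1 WT and 2 knockout arrays of scWAT, and its call was held in 2 of 12 fits without 1 array.

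Among 10 tested substrates and targets, 2 rose and 1 fell. *Ucp1* read -4.63, -4.52 and 2.92 in WT scWAT against 4.39, 9.75 and 10.05 in Lr11 -/- scWAT (difference 10.14, adjusted p = 0.033), and *Ppargc1a*, a coactivator of thermogenic genes, was higher by 4.50 (adjusted p = 0.037). *Fos*, an immediate early gene that cAMP can induce, was lower, with a difference of -3.31 (adjusted p = 0.044). In BAT it was also lower, by -4.08, which was not called. There it read 0.66, -0.04 and 2.63 in WT against -2.95, -2.18 and -3.88 in Lr11 -/- mice, without overlap. The scWAT calls of *Ucp1*, *Ppargc1a* and *Fos* were each held when replicate 1 or 3 of WT scWAT, or replicate 1 of the knockout scWAT, was left out. They were lost without any 1 of the other 9 arrays. The lipases *Pnpla2* and *Lipe* and the droplet coat *Plin1* differed by 2.10, 2.08 and 1.92 without passing the adjusted test, and all 3 were lowest on WT scWAT replicate 2. These 3 genes and the remaining calls fall outside the naming rule and were chosen after their values were seen. The calls were *Pde1a*, a calcium-dependent phosphodiesterase, at 1.104 (adjusted p = 0.030) and *Maob*, a monoamine oxidase, at 2.24 (adjusted p = 0.045).

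**Figure D5:**
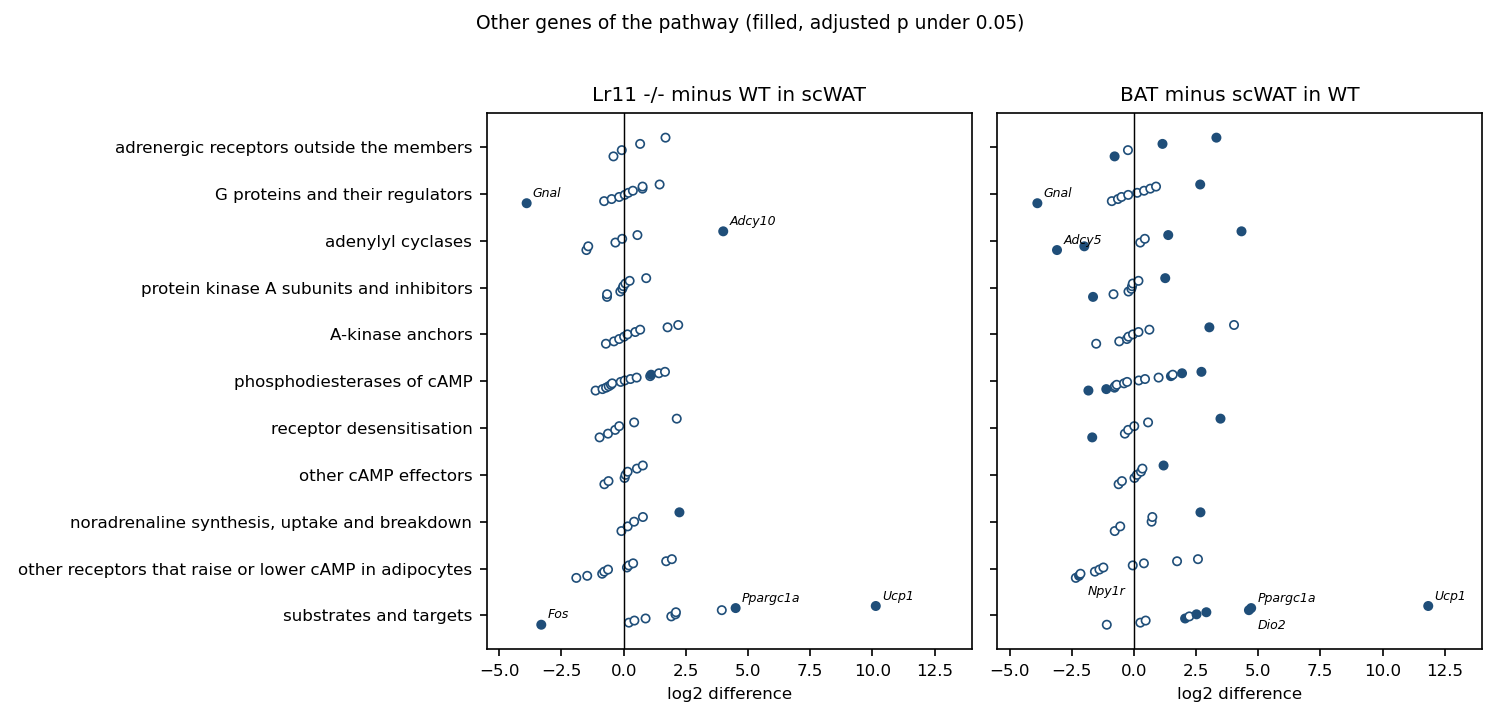
Log2 differences of the 89 other tested genes of the pathway by class, Lr11 -/- minus WT in scWAT on the left and BAT minus scWAT in WT mice on the right, filled where the adjusted p was under 0.05. *Gnal* lies near -3.9 in both panels.

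Between the tissues of WT mice 28 of the 89 genes were called, 19 higher and 9 lower in BAT, a share of 31.5% against 26.3% of all named genes. The largest rises were *Ucp1* at 11.84, *Ppargc1a* at 4.72 and *Dio2*, the deiodinase that activates thyroid hormone in brown fat, at 4.63 (adjusted p = 0.0043, 0.0071 and 0.029). The largest falls were *Gnal* at -3.88, the adenylyl cyclase *Adcy5* at -3.09 and the Gi-coupled neuropeptide Y receptor *Npy1r* at -2.20 (adjusted p = 0.0019, 0.011 and 0.0088). *Adcy5* read 3.50, 0.96 and 2.27 in WT scWAT and between -1.21 and -0.08 on the BAT arrays, with Lr11 -/- scWAT at 2.22, -0.04 and 0.27, where it was not called between genotypes. *Dio2* lost its call without WT scWAT replicate 2 or 3 or WT BAT replicate 1 or 2 (adjusted p = 0.057 to 0.098). In BAT between genotypes, and in Lr11 -/- mice between tissues, 0 of the 89 was called by limma, with 3 and 12 at an unadjusted p under 0.05, against 1.81% and 8.84% of all named genes.

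The named genes whose profiles over the 12 arrays were nearest to those of 4 members were found by the root mean square distance after each gene's own mean was removed, over 14701 genes. For *Adrb3*, whose values lay 2.49 from their mean by the same measure, these were the carboxylesterase *Ces1d* (distance 0.68), the glyceroneogenic enzyme *Pck1* (0.72) and *Nat8l*, which makes N-acetylaspartate (0.80), and each was lowest on WT scWAT replicate 2. For *Adra2a* they were the protease *Ctsk* (0.89), the glycoprotein *Gpnmb* (0.95) and *Pdpn* (0.96), which were highest on that array, at 7.58, 6.66 and 5.33. For *Gnas* they were the vitamin D hydroxylase *Cyp2r1* (0.18), the succinate dehydrogenase subunit *Sdhd* (0.18) and *Alkbh7* (0.19), and for *Pde3b* they were *Negr1* (0.23), *Csad* (0.24) and the peroxisomal *Pex3* (0.25). The distances are descriptions over 12 arrays that share tissue, genotype and array series. Those from *Adra2a* include the 6 BAT arrays and Lr11 -/- scWAT replicate 3, where its probe was not well above background.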

How the data were processed

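RNA from 12 samples was hybridised to one-colour Agilent mouse arrays. The authors deposited processed signal intensity from Feature Extraction 10.10.1.1, background-subtracted and detrended within each array but not scaled between arrays. Control and outlier spots were dropped, spots of a probe were averaged on the log2 scale, and each array was centred on its 75th percentile. Tested were the 32120 of 55681 probes that stood well above background throughout at least 1 group. The number of arrays limits precision.

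Symbols came from RefSeq accessions (GRCm38.p6 table, 27235 of 28685 matched). 1 limma 3.58.1 model (R 4.3.3) with a mean per group held all 12 arrays, and p-values were adjusted by Benjamini-Hochberg over all tested probes. In a simulated scWAT comparison of 32120 probes, the model recovered 5, 28, 38 and 47 of 50 changed probes, with 8 false calls. The sizes of change, in the same order, were 1, 2, 3 and 4 on the log2 scale. Recovery where an array stands apart from its group, as WT scWAT replicate 2 did in cell type markers, was not tested.

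The genes, lists and tests were chosen with earlier results of these data known. Besides the 9 genes, the text names *Sorl1*, per contrast the 3 largest rises and falls among called genes of the other lists, and the 3 nearest profiles of 4 members. *Pnpla2*, *Lipe*, *Plin1*, *Pde1a*, *Maob* and *Pde8b* were chosen after their values were seen. Groups came from the source labels. A label gives an HFD of 4 weeks and the protocol HFD from weaning. Alternatives changed the scaling, filter, outlier spots, background correction, blocks, weights, variance model, arrays or probe.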

Additional observations from a re-analysis of the deposited data

Results flagged for a closer look

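*Adrb1* is listed because every array moved in opposite directions in both tissues on its brightest probe. The difference, Lr11 -/- minus WT, was 2.96 in scWAT and -1.14 in BAT. The interaction test of that contrast of effects gave 4.10 with an adjusted p of 0.36, and the lowest knockout scWAT array read -2.44, as did the highest WT array. The other *Adrb1* probe overlapped between genotypes in both tissues.

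*Pde8b*, a cAMP phosphodiesterase, met the same condition with -1.13 in scWAT and 0.28 in BAT. It read -2.81, -1.65 and -2.28 in WT scWAT against -2.92, -3.13 and -4.09 in Lr11 -/- scWAT, the last not well above background, and its interaction test did not pass (adjusted p = 0.40).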

How the results depend on the processing

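No paired analysis was possible because the labels carry no replicate numbers. The count of the 9 genes called between genotypes in scWAT, 3 with all arrays, was 1 without scaling (2.61% of all probes called), 0 without the filter on dim probes (0.271%), 1 with the slide as a block (2.84%), 8 in the second array series alone (22.6%), 7 with array weights (10.6%) and 0 with only the scWAT arrays (0.0%), against 5.27% with all arrays, and ran from 0 to 8 over the 12 fits that left out 1 array. For the interaction it was 0 with all arrays, 3 in the second series (2.77% of all probes), 4 with array weights (3.37%), and 0 to 2 with 1 array left out. Between the tissues of WT mice it was 7 with all arrays, 4 with only the WT arrays (12.2% of all probes, against 24.8%), 2 without the 5 arrays that had all muscle markers (7.35%, chosen after seeing the data), and 4 to 8 with 1 array left out. Both other counts, in BAT and between the tissues of Lr11 -/- mice, stayed at 0 in all 26 alternatives each. The cause of these shifts was not tested. The fits of 1 tissue or genotype hold fewer arrays and take the spread from those arrays alone. The fit without the filter adjusts over more probes.

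Signs turned only for differences that were not called. Between genotypes in BAT these were *Adrb3* with array weights (-0.0027) or without the muscle-marked arrays (-0.53), *Adra1a* with median scaling (0.0021), *Adra2a* with array weights (-0.0342) or without the muscle-marked arrays (-0.17), *Adra2c* without scaling (-0.0255) or in the second series (-0.0373), *Gnas* on its other probe (0.19), and *Prkar2b* with quantile normalization (-0.0061), without scaling (-0.0208), with normexp (-0.0013), in the second series (-0.078) or without the muscle-marked arrays (-0.13). With 1 array left out the BAT differences ran from -0.10 to 0.51 for *Adrb3*, -0.20 to 0.0398 for *Adra1a*, -0.39 to 0.60 for *Adra2a*, -0.0868 to 0.26 for *Adra2c*, -0.20 to 0.0406 for *Gnas* and -0.16 to 0.15 for *Prkar2b*. *Adra1a* between the tissues of Lr11 -/- mice was -0.11 in the second series and without the muscle-marked arrays. In the first series, 1 array against 1 with no test, signs turned in BAT for *Adra1a* (0.17), *Adra2a* (-0.59) and *Gnas* (0.25), in scWAT for *Adra1a*, *Adra2c* and *Prkar2b* (-1.50, -0.99 and -1.27), in the interaction for these 3 (-1.67, -1.15 and -1.52) and *Gnas* (-0.20), and between the tissues of WT mice for *Adra2c* (-0.70). Leaving out 1 array gave -0.50 to 0.72 for *Adra2c* between genotypes in scWAT, -0.53 to 0.69 for its interaction, -0.34 to 0.87 for its tissue difference in WT mice, -0.16 to 1.71 for *Adra1a* between the tissues of Lr11 -/- mice, -0.0599 to 0.9970 for *Prkar2b* there and -0.0327 to 0.29 for *Pde3b* there. *Sorl1* kept its call in scWAT in 25 of 26 tested alternatives and in BAT in 7 of 26, with -3.91 to -3.14 in BAT when 1 array was left out. Signal over background limits *Adra2a*, which was dim on all BAT arrays.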
